A study of Homo sapiens with 3 samples.

Results

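The subunits of the oxidative phosphorylation system were described across 3 RNA sequencing libraries of H1975, an established EGFR-mutant human lung adenocarcinoma cell line. Members were chosen by gene symbol: the NDUF subunit names of complex I, SDHA to SDHD of complex II, the UQCR names of complex III, COX4 to COX8 of complex IV, the ATP5F, ATP5M, ATP5P and ATP5IF names of complex V, and the mitochondrially encoded MT-ND, MT-CYB, MT-CO and MT-ATP genes. Of 16662 genes listed, 110 carried such names. The rule dropped 17 of them, 15 pseudogenes of at most 4.25 CPM and 2 antisense or divergent transcripts of at most 2.24 CPM. It left 93 members, 80 encoded in the nucleus and 13 in mitochondrial DNA. NDUFA4, which is named for complex I and is now placed in complex IV, was counted with complex IV. The name rule leaves out some subunits, such as CYC1 and NDUFAB1, which are given separately below, and NDUFV2 was not analysed here.

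Oxidative phosphorylation couples the oxidation of NADH and succinate to ATP synthesis across the inner mitochondrial membrane. Complexes I and II pass electrons to coenzyme Q, complex III passes them to cytochrome c, complex IV reduces oxygen, and complex V (ATP synthase) uses the proton gradient that complexes I, III and IV build. All complexes except II combine subunits from both genomes: the mitochondrial ones are transcribed inside the organelle as long precursors from each strand, and the nuclear ones are transcribed singly and imported as proteins. In lung adenocarcinoma cells, as in other dividing cells, it supports ATP and aspartate synthesis beside glycolysis.

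The groups were H1975 cells transfected with siHHLA3-1, with siHHLA3-3, or with the control siRNA siNC, 1 library each. The siHHLA3 numbers denote differently numbered siRNAs against HHLA3. Transfection was at about 70% confluency, followed by 6 h without serum and 24 h with 10% serum, in every group. Every library has a batch label of its own, which means that a batch effect and an siRNA effect cannot be told apart, and H1975 is the only line. Library totals were 35069930, 26950852 and 32813003 reads. HHLA3 itself stood at 1.55 CPM with siHHLA3-1 (55 counts), 0.735 CPM with siHHLA3-3 (20 counts) and 5.99 CPM with siNC (192 counts), so the target was lower in both knockdown libraries. Of 9 epithelial and lung adenocarcinoma markers, 8 were listed, with summed levels of 4998, 4179 and 5142 TPM, and SFTPB was not analysed here. For each of the fibroblast and endothelial lists 1 marker was listed (COL1A1 and CDH5), and neither exceeded 11.2 TPM in any library.

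Levels are normalised CPM, counts scaled to a common library total after scaling of the library totals with TMM factors. A ratio is log2 of (CPM + 1) over (CPM + 1), the siHHLA3 library over siNC, and 1.5-fold was the threshold for counting a difference. The filter of a mean of 1 CPM over the libraries kept 13879 genes, among them 91 of the 93 members. COX7A1, the heart and muscle form of a small complex IV subunit, stood at 0.197, 0.257 and 0.156 CPM with siHHLA3-1, siHHLA3-3 and siNC, and NDUFA7, an accessory subunit of complex I, at 0.620, 1.07 and 0.655 CPM. Both fell below the filter. With 1 library per group, no spread between replicates exists, and all intervals are 95% intervals of counting error only. In bulk RNA, less RNA per cell and fewer cells carrying it cannot be told apart.

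The nuclear members were lower in both knockdown libraries, by a small amount that was shared widely among them. Summed over the 80 nuclear members, the level was 6910 CPM with siHHLA3-1 and 6983 CPM with siHHLA3-3, against 7894 CPM with siNC. The sum was thus 12.5% lower with siHHLA3-1 (ratio 0.875, 95% counting interval 0.871 to 0.880) and 11.5% lower with siHHLA3-3 (ratio 0.885, 0.879 to 0.890). Summed over all genes listed, the level was itself 3.5% and 3.2% lower on this scale, and over genes averaging 100 CPM or more 4.6% and 3.8% lower. Other scalings moved the nuclear ratios beyond these intervals, to 0.907 and 0.914 with library totals alone and to 0.920 and 0.921 with the deposited TPM. The median log2 ratio of the 78 nuclear members kept was -0.13 with siHHLA3-1 and -0.16 with siHHLA3-3, while the median over all genes kept was -0.01 with each. Both comparisons share the siNC library, so neither is independent support for the other.

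Most nuclear members lay below 0, and few lay far below it. With siHHLA3-1, 71 of 78 were below 0, where 51.8% of all genes kept were. With siHHLA3-3, 69 of 78 were below 0, where 51.5% of all genes kept were. Abundant genes as a class also leaned low: of 2357 genes that averaged 100 CPM or more, 60.5% were below 0 with siHHLA3-1 and 54.8% with siHHLA3-3. Their medians were -0.07 and -0.03. Of the 21 nuclear members at such levels, 19 were below 0 with siHHLA3-1 and 19 with siHHLA3-3. Scaling by library totals alone left 64 and 65 of the 78 below 0, with 45.3% and 44.8% of all genes kept below 0. The deposited TPM left 61 and 60, with 44.4% and 42.5% of all genes kept below 0 by TPM. By counting error alone, the interval of the ratio lay wholly below 1 for 45 of the 80 nuclear members with siHHLA3-1 and above 1 for 4. With siHHLA3-3 it lay wholly below 1 for 53 and above 1 for 4. No such count was made over all genes, so these counts are not read as a trait of the members.

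**Figure D1:**
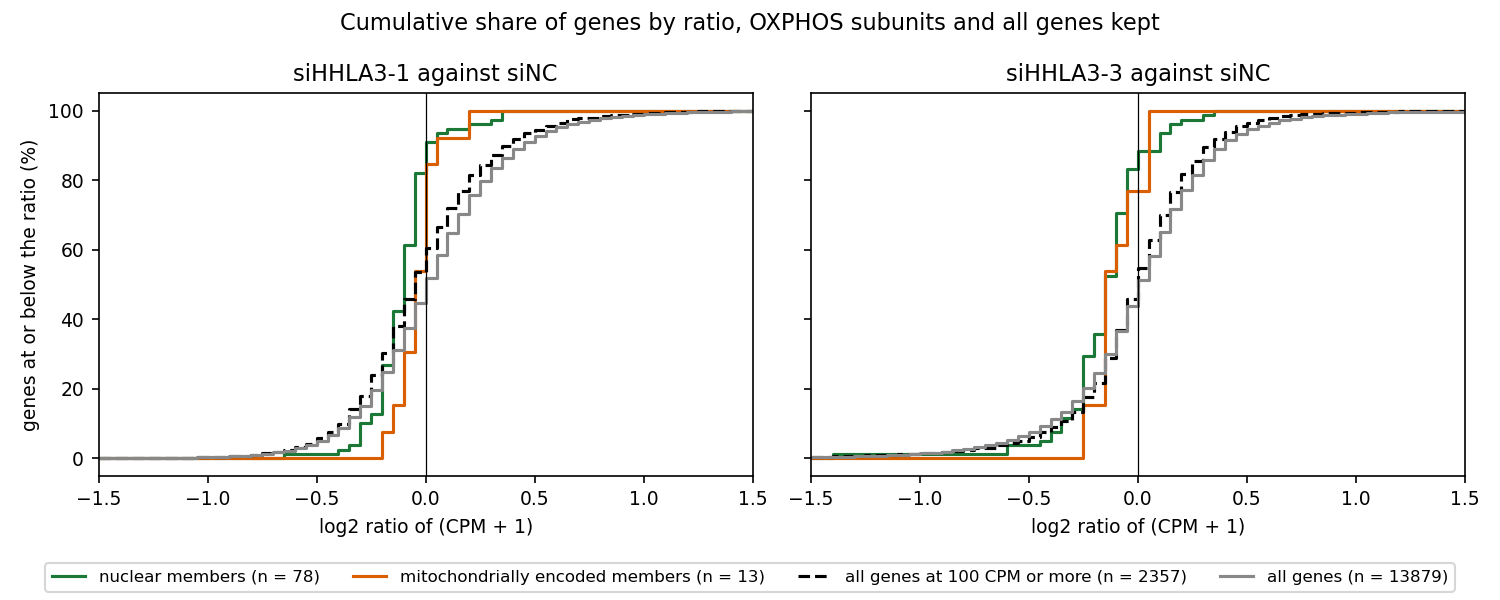
Cumulative share of genes (vertical axis, percent) at or below each log2 ratio of (CPM + 1) (horizontal axis), siHHLA3-1 against siNC on the left and siHHLA3-3 against siNC on the right, for the 78 nuclear and 13 mitochondrially encoded members, the 2357 genes of at least 100 CPM and all 13879 genes kept. The curve of the nuclear members crosses 0 at a higher share than that of all genes (71 of 78 members against 51.8% on the left, 69 of 78 against 51.5% on the right), while its lower tail does not reach further than that of all genes.

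Few single members passed 1.5-fold, and their counts were set beside the share of all genes past it. With siHHLA3-1, 1 member was at least 1.5-fold lower (UQCR11), where 3.34% of all genes kept were, and 0 were higher, where 5.03% of all genes were. With siHHLA3-3, 3 members were at least 1.5-fold lower (NDUFB5, COX5A and ATP5F1D), where 5.57% of all genes were, and 0 were higher, where 3.65% were. At a milder threshold, 5 members stood at 0.8 of the siNC level or less with siHHLA3-1, where 13.5% of all genes did, and for 2 members siNC stood at 0.8 of the siHHLA3-1 level or less, where 15% of all genes did so. With siHHLA3-3, 11 stood at 0.8 of siNC or less, where 15.1% of all genes did, and 1 was higher by the same factor, where 12.7% were. Taking the siHHLA3 libraries as 2 samples against siNC, edgeR's quasi-likelihood test called 0 of the 91 members at an adjusted p under 0.05, where 0.00721% of all genes (1 of 13879) were called. No member had an unadjusted p under 0.05 in that fit, against 349 of all genes (2.51%), and DESeq2 called 0 members and 5 genes in all. The smallest unadjusted p of a member in the edgeR fit was 0.111, for ATP5F1D at a log2 fold change of -0.46. The fit had a single residual degree of freedom and counted the difference between the siRNAs as spread.

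**Figure D2:**
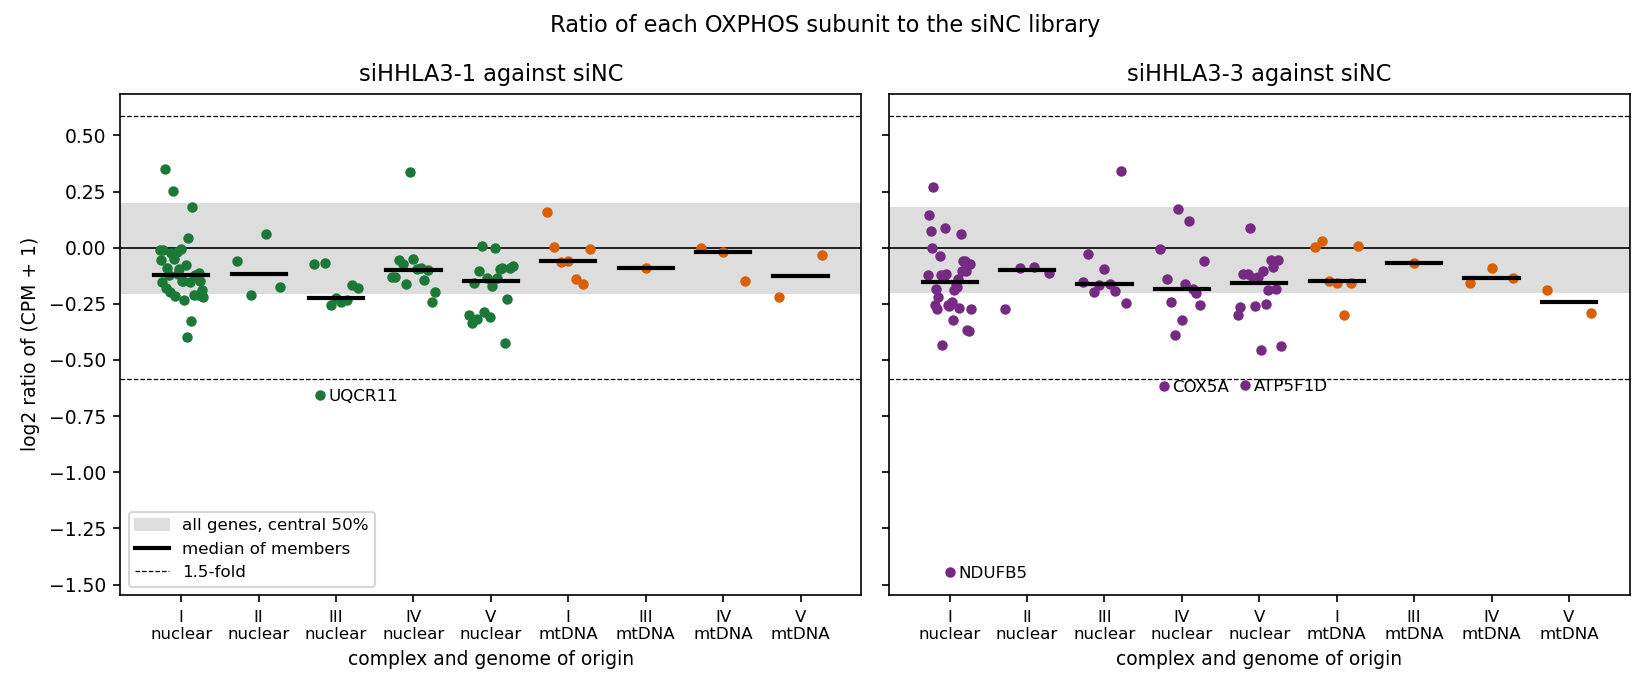
Log2 ratio of (CPM + 1) of each of the 91 members kept (points), by complex and genome of origin, siHHLA3-1 against siNC on the left and siHHLA3-3 against siNC on the right. Black bars are the medians of the members, the grey band holds the central 50% of all genes kept, and dashed lines mark 1.5-fold. Most points lie between 0 and the dashed line below it, and the named points past that line are UQCR11 on the left and NDUFB5, COX5A and ATP5F1D on the right.

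The short stretches of 3′ UTR shown next belong to the members at the edges of these distributions. They hold 7-base sequences, CAGAATG for siHHLA3-1 and GTGAACT for siHHLA3-3, that an earlier scan of these same ratios had found in genes that were lower with that siRNA, so they were chosen on these data. NDUFB5 and UQCR11 are shown as the lowest members with siHHLA3-3 and siHHLA3-1, NDUFS1 and COX6B2 as genes that hold both. The sites of NDUFS1 come from the same transcript, and those of COX6B2 were read from different transcripts. The sites were read from protein-coding transcripts of GENCODE release 29 on GRCh38, 5′ to 3′ on the gene's strand, with the 7 bases in capitals.
NDUFB5, chr3:179624247-179624273, plus strand: ataggaatttGTGAACTcctaaaattg
UQCR11, chr19:1597943-1597969, minus strand: ctttcagctcCAGAATGttgcaagtct
NDUFS1, chr2:206114919-206114945, minus strand: gaaagtgcttCAGAATGtattaaggac
NDUFS1, chr2:206116287-206116313, minus strand: aaagctgctaGTGAACTctattctcct
COX6B2, chr19:55352096-55352122, minus strand: ctctgagtcaCAGAATGgagctaagtt
COX6B2, chr19:55350657-55350683, minus strand: agctaccttgGTGAACTcatgacccca

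The share of nuclear members holding these sequences was set beside that of all genes searched, as a description. CAGAATG was in an annotated 3′ UTR of 6 of 78 nuclear members (7.69%) and of 18.7% of the 11787 genes searched. GTGAACT was in 6 of 78 (7.69%) and in 12.6% of the genes searched. The ratios of the CAGAATG carriers with siHHLA3-1 were -0.66 for UQCR11, -0.33 for NDUFS1, -0.15 for NDUFA11, -0.12 for NDUFA5, -0.10 for ATP5F1E and 0.34 for COX6B2. The ratios of the GTGAACT carriers with siHHLA3-3 were -1.44 for NDUFB5, -0.30 for ATP5F1A, -0.27 for NDUFS1, -0.09 for ATP5PB, 0.09 for ATP5IF1 and 0.17 for COX6B2. Carriers were thus found at both ends of the distribution. The median of members with and without the sequence was -0.14 and -0.13 with siHHLA3-1, and -0.18 and -0.16 with siHHLA3-3. Over all genes searched, from which the sequences had been chosen, the same medians were -0.09 and -0.01 with siHHLA3-1, and -0.19 and -0.0010 with siHHLA3-3. With 6 carriers among the members for each sequence, nothing is read from these medians about its part in the ratios. Neither 7-base sequence was found in the annotated 3′ UTRs of COX5A or ATP5F1D.

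NDUFB5, an accessory subunit of the membrane arm of complex I, had the lowest ratio of any member. Its level was 20.0 CPM with siHHLA3-1 (711 counts), 7.57 CPM with siHHLA3-3 (206 counts) and 22.3 CPM with siNC (716 counts). The siHHLA3-3 library stood apart, at 2.95-fold below siNC (95% counting interval 2.52 to 3.46), and siHHLA3-1 was 1.12-fold below (1.00 to 1.24). In GENCODE release 29 on GRCh38 the gene spans chr3:179604690-179627647 on the plus strand, and none of its exons overlap another gene.

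COX5A, a matrix-side nuclear subunit of complex IV, stood at 85.8 CPM with siHHLA3-1, 61.1 CPM with siHHLA3-3 and 94.1 CPM with siNC. It was 1.54-fold lower with siHHLA3-3 (1.45 to 1.64) and 1.10-fold lower with siHHLA3-1 (1.04 to 1.15). The gene spans chr15:74919791-74938168 on the minus strand. ATP5F1D, the delta subunit of the central stalk of ATP synthase, stood at 101 CPM with siHHLA3-1, 82.0 CPM with siHHLA3-3 and 126 CPM with siNC, so it was low in each siHHLA3 library. Its ratio of CPM was 0.801 with siHHLA3-1 (0.766 to 0.838) and 0.652 with siHHLA3-3 (0.619 to 0.687), and it spans chr19:1241746-1244826 on the plus strand.

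UQCR11, a small subunit of complex III, showed the other order. It stood at 8.62 CPM with siHHLA3-1 (306 counts), 13.8 CPM with siHHLA3-3 (377 counts) and 14.2 CPM with siNC (454 counts). It was 1.64-fold lower with siHHLA3-1 (1.42 to 1.91), and with siHHLA3-3 it differed from siNC by less than the counting error (1.02-fold, 0.890 to 1.18). The gene spans chr19:1597172-1605490 on the minus strand, and 10.9% of its exon bases overlap AC005943.1, so some of its reads may be shared. COX5A and ATP5F1D passed 1.5-fold by little: with library totals alone their siHHLA3-3 ratios were -0.57 and -0.56, short of it.

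**Figure D3:**
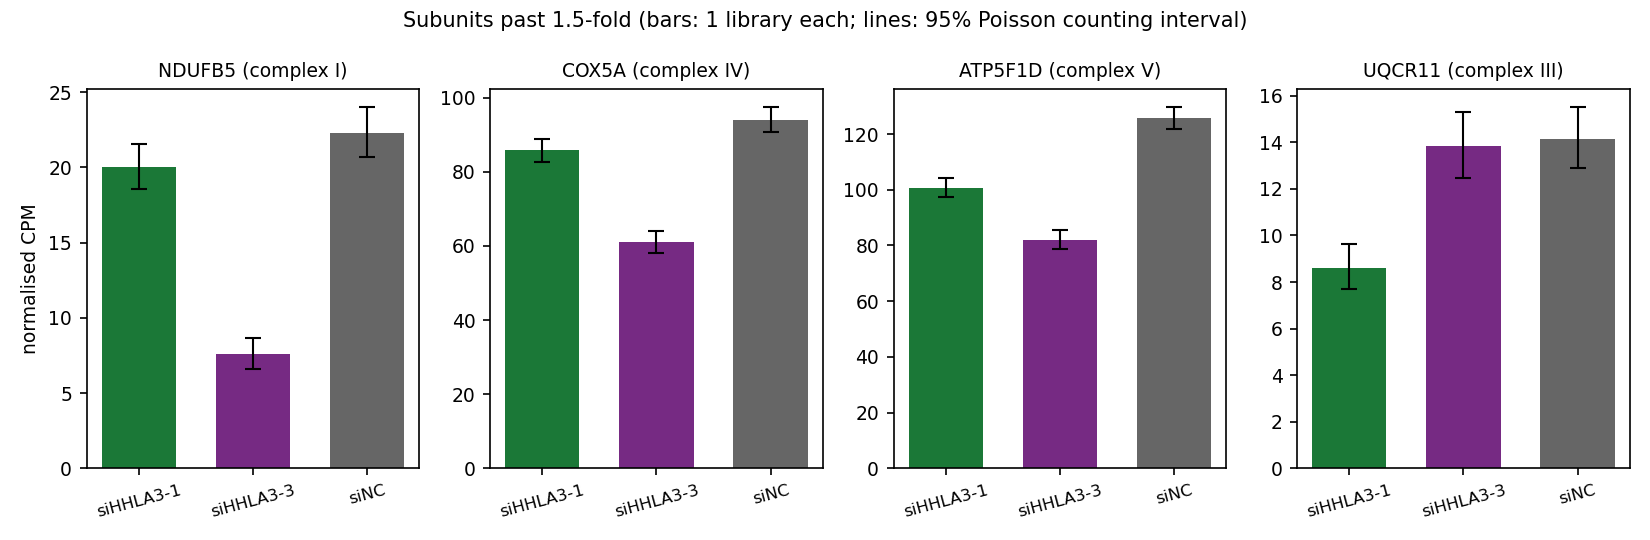
Normalised CPM (vertical axes, each starting at 0) of NDUFB5, COX5A, ATP5F1D and UQCR11 in the siHHLA3-1, siHHLA3-3 and siNC libraries. Bars are single libraries and lines are 95% Poisson counting intervals. NDUFB5 is low with siHHLA3-3 alone (7.57 CPM), UQCR11 with siHHLA3-1 alone (8.62 CPM), and ATP5F1D is below siNC in both siHHLA3 libraries.

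Complex I holds the largest group of members, 35 nuclear and 7 mitochondrially encoded. Its nuclear median was -0.12 with siHHLA3-1 (30 of 34 below 0) and -0.15 with siHHLA3-3 (29 of 34 below 0). The share of all genes kept that lay below 0 was 51.8% and 51.5%. The 6 nuclear core subunits analysed had medians of -0.17 and -0.19, beside -0.12 and -0.15 for the 28 accessory subunits kept. Most of these core subunits carry the flavin or iron-sulfur clusters or help to form the quinone site. NDUFS1, the largest core subunit, stood at 110 CPM with siHHLA3-1, 114 CPM with siHHLA3-3 and 138 CPM with siNC, ratios of -0.33 and -0.27. NDUFB9, an accessory subunit, had 68.5, 80.7 and 90.4 CPM with siHHLA3-1, siHHLA3-3 and siNC, the lowest complex I ratio with siHHLA3-1 at -0.40. Other genes overlap 21.0% of the NDUFB9 exon bases, so some of its reads may be shared. NDUFB1, another accessory subunit, had 36.4, 27.7 and 37.7 CPM in the same order, with a ratio of -0.43 for siHHLA3-3. NDUFS1 was thus low in both siHHLA3 libraries, NDUFB9 mainly with siHHLA3-1 and NDUFB1 with siHHLA3-3.

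A few complex I members were above siNC. NDUFA13, an accessory subunit also known as GRIM-19, had 7.18 CPM with siHHLA3-1, 6.76 CPM with siHHLA3-3 and 5.42 CPM with siNC, ratios of 0.35 and 0.27. It rests on 255, 184 and 174 counts, and 21.0% of its exon bases overlap other genes. NDUFA9, an accessory subunit near the quinone site, had 6.05, 4.44 and 4.93 CPM, ratios of 0.25 and -0.12. NDUFA10, an accessory subunit related to nucleoside kinases, had 103, 119 and 107 CPM, ratios of -0.06 and 0.15. The higher members thus differed between the siRNAs or were of low level.

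Complex II, succinate dehydrogenase, is also an enzyme of the citric acid cycle and has nuclear subunits alone. SDHA, the flavoprotein, stood at 10.2 CPM with siHHLA3-1, 8.67 CPM with siHHLA3-3 and 10.7 CPM with siNC, but its listed copies SDHAP1 and SDHAP3 can take some of its reads. SDHB, the iron-sulfur subunit, stood at 70.4, 76.5 and 81.6 CPM, ratios of -0.21 and -0.09. SDHC and SDHD, the membrane anchors, had ratios of 0.06 and -0.18 with siHHLA3-1 and of -0.09 and -0.11 with siHHLA3-3. None of the 4 differed from siNC as much as a ratio of 0.8. Their summed level was 281 CPM with siHHLA3-1, 275 CPM with siHHLA3-3 and 295 CPM with siNC, a ratio of 0.954 (0.927 to 0.981) with siHHLA3-1 and 0.932 (0.904 to 0.961) with siHHLA3-3. Summed over all genes listed, the ratios were 0.965 and 0.968, so the siHHLA3-1 sum of complex II lay close to that of genes in general.

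Complex III members were all below siNC in the siHHLA3-1 library. The median of the 9 nuclear members was -0.23 with siHHLA3-1, 9 of 9 below 0, and -0.16 with siHHLA3-3, 8 of 9 below 0. Among all genes kept, 51.8% and 51.5% were below 0, and among those at 100 CPM or more 60.5% and 54.8%. UQCRC1, a core protein of the matrix side, stood at 176 CPM with siHHLA3-1, 187 CPM with siHHLA3-3 and 210 CPM with siNC, ratios of CPM of 0.836 (0.808 to 0.865) and 0.892 (0.860 to 0.925). UQCRH, the hinge protein that meets cytochrome c, stood at 81.8, 84.0 and 96.3 CPM. UQCRB, which helps to form the quinone site, had ratios of -0.07 and -0.20, UQCR10 of -0.07 and -0.15, and UQCRQ of -0.18 and -0.25. The member above siNC with siHHLA3-3 was UQCRHL, a near copy of UQCRH, at 4.20, 6.39 and 4.83 CPM. UQCRH and UQCRHL can exchange reads, so their split is uncertain.

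Complex IV nuclear subunits surround the mitochondrially encoded catalytic core. Their median was -0.10 with siHHLA3-1 (12 of 13 below 0) and -0.18 with siHHLA3-3 (11 of 13 below 0), where 51.8% and 51.5% of all genes kept were below 0. COX6B1, an intermembrane-space subunit, stood at 72.7 CPM with siHHLA3-1, 62.0 CPM with siHHLA3-3 and 81.5 CPM with siNC, ratios of -0.16 and -0.39. Its testis-type counterpart COX6B2 stood at 14.6, 12.9 and 11.3 CPM, ratios of 0.34 and 0.17, with 30.9% of its exon bases overlapping AC020922.1. Of the pair of COX7A forms, COX7A2 stood at 126, 120.3 and 129 TPM and COX7A1 at 1.20, 1.57 and 0.910 TPM (levels scaled by gene length). COX4I1 had 320, 349 and 351 CPM and COX6A1 16.3, 14.3 and 17.1 CPM, and their counterparts COX4I2 and COX6A2, like NDUFA4L2, were not analysed here. COX8A, a small membrane subunit with 34.5% of its exon bases overlapping AP000721.1, had the lowest ratio of complex IV with siHHLA3-1, -0.24. NDUFA4 followed with 123, 135 and 141 CPM and ratios of -0.20 and -0.06. COX7A2L, a factor of supercomplex assembly with a COX7A-like fold, had 85.6, 99.1 and 91.3 CPM and ratios of -0.09 and 0.12, and COX6C had -0.05 and -0.32.

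Complex V showed the largest relative difference in summed level among the nuclear parts. The sum of its 18 nuclear members was 2773 CPM with siHHLA3-1, 2857 CPM with siHHLA3-3 and 3346 CPM with siNC, 17.1% lower with siHHLA3-1 (ratio 0.829, 0.822 to 0.836) and 14.6% lower with siHHLA3-3 (0.854, 0.846 to 0.862). Summed over all genes listed, the ratios were 0.965 and 0.968. ATP5F1B, the catalytic beta subunit, carries much of the complex V sum. It stood at 1244 CPM with siHHLA3-1, 1306 CPM with siHHLA3-3 and 1570 CPM with siNC, ratios of CPM of 0.792 (0.782 to 0.802) and 0.832 (0.821 to 0.843), and spans chr12:56638175-56646068 on the minus strand. By median, which gives each member the same weight, complex V lay at -0.15 and -0.16, close to the other complexes. In each comparison 17 of 18 members were below 0, where 51.8% and 51.5% of all genes kept were.

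Within complex V the F1 part, the catalytic head with its central stalk, had the lowest median in each comparison. The 5 members of F1 had a median ratio of -0.30 for siHHLA3-1 and of -0.27 for siHHLA3-3. ATP5F1A, the alpha subunit, stood at 309 CPM with siHHLA3-1, 309 CPM with siHHLA3-3 and 380 CPM with siNC, and ATP5F1E, the epsilon subunit, at 161, 159 and 172 CPM. The 3 genes of the c-ring, whose products carry the rotating proton sites, had medians of -0.29 and -0.14, and the 4 of the peripheral stalk -0.16 and -0.14. By summed level with siHHLA3-1, the peripheral stalk was at 0.802 of siNC and F1 at 0.811. ATP5PB, the b subunit of that stalk, stood at 103 CPM with siHHLA3-1, 130 CPM with siHHLA3-3 and 138 CPM with siNC, ratios of -0.43 and -0.09. The siHHLA3-1 library was the low one for this member.

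The small membrane subunits of complex V had medians of -0.09 and -0.19 over 5 members. ATP5ME, which supports ATP synthase dimers, had 1.83, 1.32 and 2.18 CPM on 65, 36 and 70 counts, and its ratio of -0.45 with siHHLA3-3 rests on those few reads. MYL5 overlaps 61.6% of the ATP5ME exon bases. ATP5MF had 40.5, 37.7 and 40.6 CPM, and ATP5MK 90.9, 93.2 and 96.8 CPM. The inhibitor ATP5IF1, which blocks the reverse reaction of ATP synthase, stood at 54.7 CPM with siHHLA3-1, 58.0 CPM with siHHLA3-3 and 54.5 CPM with siNC. It was the complex V gene with the highest ratio in each comparison (0.01 and 0.09), and its counting intervals included 1.

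The 13 mitochondrially encoded members were described next, as the other genome of the same complexes. Their summed level was 59951 CPM with siHHLA3-1, 57235 CPM with siHHLA3-3 and 62537 CPM with siNC, ratios of 0.959 (0.957 to 0.961) and 0.915 (0.913 to 0.917). The same ratio was 0.965 and 0.968 summed over all genes listed, and 0.954 and 0.962 over genes at 100 CPM or more. The siHHLA3-1 sum of the 13 members thus lay close to that of genes in general. Their median ratio was -0.06 with siHHLA3-1, 11 of 13 below 0, and -0.15 with siHHLA3-3, 10 of 13 below 0. Of all genes at 100 CPM or more, 60.5% and 54.8% were below 0. Unlike the nuclear one, the siHHLA3-1 median did not keep its direction: it was 0.00 with the deposited TPM and 0.10 once a trend of the ratio on mean level was removed. None of the 13 stood at 0.8 of siNC or less, or higher by that factor, in either comparison (0 members). Of all genes kept, 13.5% with siHHLA3-1 and 15.1% with siHHLA3-3 were as low, and 15% and 12.7% as high.

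The genes of the mitochondrial genome did not move as a block. MT-ND1, a core subunit of complex I and the first protein gene after the rRNA genes, stood at 2687 CPM with siHHLA3-1, 2407 CPM with siHHLA3-3 and 2405 CPM with siNC, a ratio of 0.16 with siHHLA3-1 and 0.00 with siHHLA3-3. MT-ATP6, the a subunit of ATP synthase that forms the proton path, stood at 3335, 3408 and 3888 CPM, ratios of -0.22 and -0.19. MT-CO3 of complex IV stood at 9619, 9720 and 10658 CPM, ratios of -0.15 and -0.13. The last pair was thus low in both siHHLA3 libraries, and MT-ND1 high in 1 of them.

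MT-CO1, MT-ATP8 and MT-ND4L were lowest in the siHHLA3-3 library. MT-CO1, the catalytic subunit of complex IV, stood at 15502 CPM with siHHLA3-1, 13922 CPM with siHHLA3-3 and 15508 CPM with siNC, ratios of 0.00 and -0.16. MT-ATP8 had 369, 308 and 377 CPM, with ratios of -0.03 and -0.29, and MT-ND4L 1185, 1060 and 1305 CPM, with ratios of -0.14 and -0.30. The ratios of MT-CO2 were -0.02 and -0.09, those of MT-CYB of complex III -0.09 and -0.07, and those of MT-ND5 -0.16 and -0.16. MT-ND2 (0.00 and 0.03) and MT-ND6 (-0.01 and 0.01), the one protein gene on the other strand, lay near 0. MT-ND3 had -0.06 and -0.15 and MT-ND4 -0.06 and -0.16. Of the 13, 12 have nuclear copies in the table, the most abundant being MTATP6P1 at 830, 790 and 943 CPM, so reads may be split between them.

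**Figure D4:**
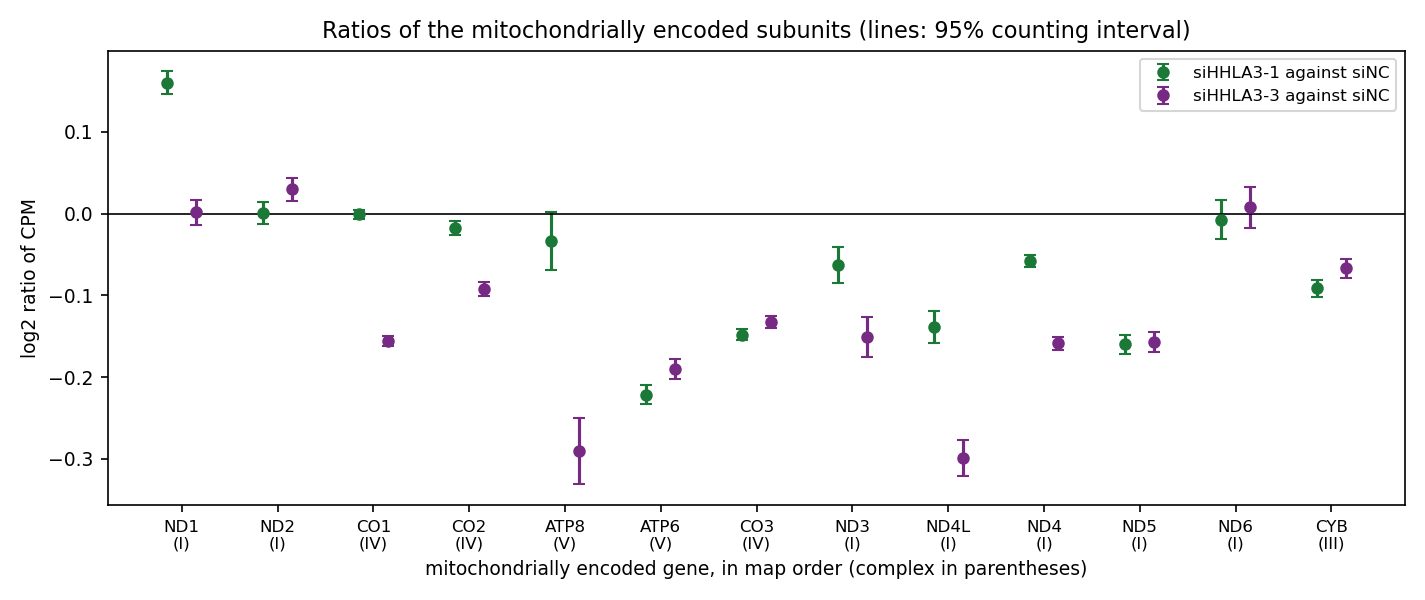
Log2 ratio of CPM (vertical axis) of the 13 mitochondrially encoded members in map order (horizontal axis), siHHLA3-1 and siHHLA3-3 each against siNC. Points are single comparisons of 1 library with 1 library and lines are 95% counting intervals. MT-ND1 is above 0 with siHHLA3-1 (0.16), MT-ATP6 and MT-CO3 are below 0 with both, and MT-ATP8 and MT-ND4L reach -0.29 and -0.30 with siHHLA3-3.

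Per length, the genomes differed far more from each other than the libraries did. In TPM, which is scaled by gene length and so allows levels of different genes to be compared, the median of the mitochondrially encoded members was 12228 with siHHLA3-1, 12487 with siHHLA3-3 and 12510 with siNC. That of the nuclear members was 78.1, 75.5 and 82.5. Mitochondrially encoded members made up 22.9%, 22.0% and 23.1% of all TPM, and nuclear members 1.07%, 1.07% and 1.16%. MT-CO3 was the highest member at 43707, 44329 and 46497 TPM, and ATP5F1B the highest nuclear one at 1980, 2087 and 2399 TPM, followed by NDUFS5 of complex I at 492, 518 and 517 TPM.

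The nuclear parts of the complexes had the same order of median level in all 3 libraries. With siHHLA3-1 it was complex IV (129 TPM), V (104), II (91.8), III (74.9) and I (34.9). With siHHLA3-3 it was 134, 100.1, 98.7, 71.6 and 35.6 TPM, and with siNC 139, 115, 101, 81.6 and 38.7 TPM. Members within a complex spread over a range wider than these medians, from NDUFA9 at 2.08, 1.53 and 1.62 TPM to NDUFS5 in complex I, so neighbouring complexes in this order do not differ beyond the spread of their members. Of the nuclear members, 16 were below 15 TPM with siNC, and 13 of these shared exon bases with another gene or had a listed copy, as did 32 of the other 64. For 5 nuclear members, among them NDUFA10, NDUFB9 and SDHC, the length implied by the deposited values differed over 2-fold from the annotated exon length, so their TPM are uncertain.

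**Figure D5:**
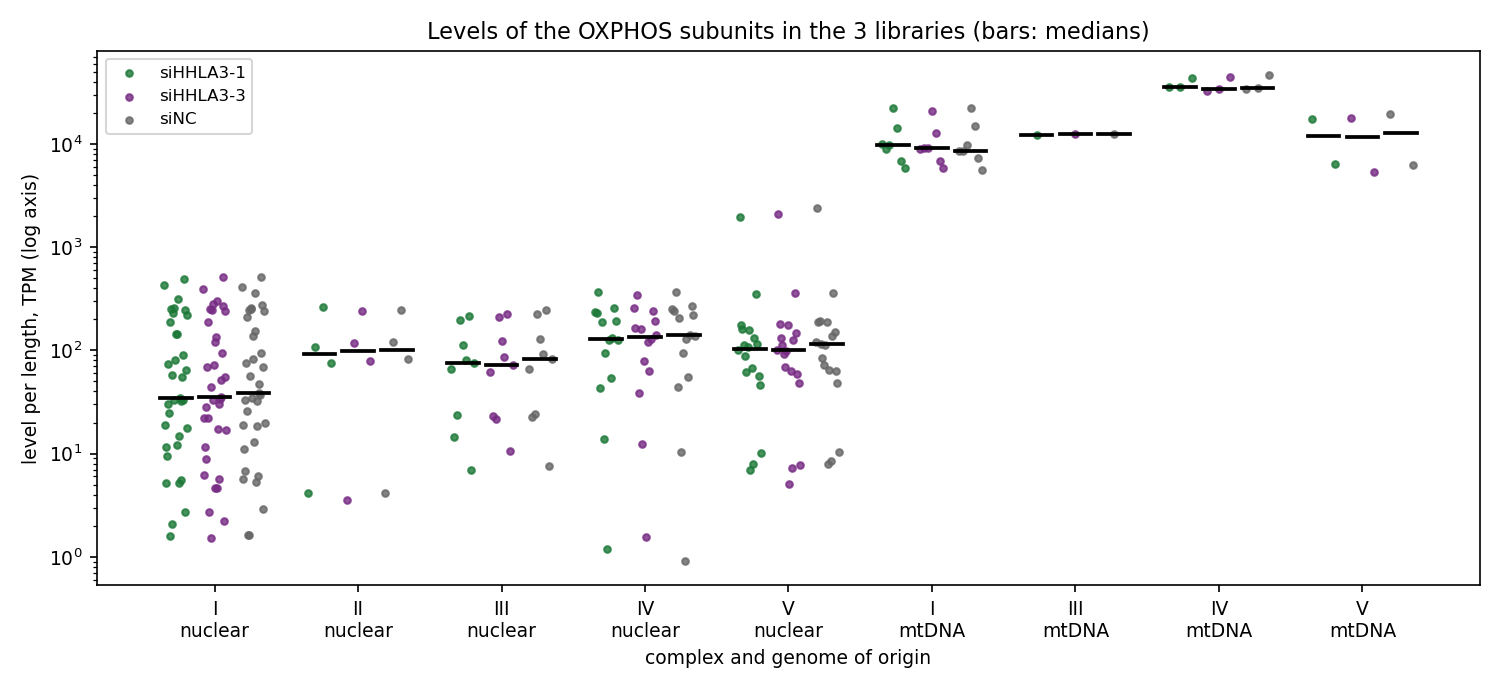
Level per length in TPM (log axis) of each of the 93 members by complex and genome of origin, in the siHHLA3-1, siHHLA3-3 and siNC libraries. Points are genes in single libraries and black bars are medians. The mitochondrially encoded members lie between 5326 and 46497 TPM, above all nuclear members, and the libraries nearly coincide within each complex.

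Promoters of the nuclear members were examined because these genes share regulators in textbook accounts: NRF1 and the ETS factor GABP, known as NRF2 in that field, and YY1. RefSeq promoters on GRCh38.p14, from 250 bases before to 50 after the gene start, were matched for 65 of the 80 nuclear members. The NRF1 letters, GCGC repeated after a gap of 2 bases of any kind, were in 26.2% of these promoters in 8.32% of all 35116 promoters of the same length and in 13.9% of the 14722 promoters of genes listed in the table. The ETS letters CCGGAAG were in 30.8%, 10.3% and 17.1%, and the YY1 letters AAGATGG in 24.6%, 5.84% and 7.09%. Both strands were searched, each motif on its own with overlaps allowed, and 63.1% of member promoters held any of them, against 21.7% of all promoters and 33.0% of those of genes listed in the table. A match of letters describes the sequence and is not a binding site.

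The promoters of UQCR11 and ATP5PB, the members with the lowest siHHLA3-1 ratios in complexes III and V, show these motifs, in capitals on whichever strand they were found. UQCR11 holds NRF1 and ETS letters, and ATP5PB the YY1 letters beside its start.
UQCR11, chr19:1605413-1605712, minus strand: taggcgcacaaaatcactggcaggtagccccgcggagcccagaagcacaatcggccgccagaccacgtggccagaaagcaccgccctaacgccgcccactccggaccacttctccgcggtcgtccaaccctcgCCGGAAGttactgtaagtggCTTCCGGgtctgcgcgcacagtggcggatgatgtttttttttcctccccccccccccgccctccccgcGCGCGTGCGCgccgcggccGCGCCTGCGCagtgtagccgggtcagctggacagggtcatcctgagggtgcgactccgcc
ATP5PB, chr1:111449214-111449513, plus strand: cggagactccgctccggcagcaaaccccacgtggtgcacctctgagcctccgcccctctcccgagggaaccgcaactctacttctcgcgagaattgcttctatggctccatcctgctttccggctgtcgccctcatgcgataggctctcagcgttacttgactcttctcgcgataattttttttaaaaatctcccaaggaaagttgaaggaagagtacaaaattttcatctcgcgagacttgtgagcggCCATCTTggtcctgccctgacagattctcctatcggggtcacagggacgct

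Median ratios were set side by side for members with and without these letters. With NRF1 letters, 17 members had a median of -0.09 for siHHLA3-1 and of -0.15 for siHHLA3-3, and the 47 without had -0.13 and -0.18. With ETS letters, 20 members had -0.17 and -0.16, and the 44 without had -0.11 and -0.16. With YY1 letters, 15 members kept by the filter had -0.12 and -0.16, and the 49 without had -0.13 and -0.16. None of the motifs was found in the COX5A promoter.

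The factors that bind such letters were measured as well. In the list of transcription factors of nuclear OXPHOS genes, 10 genes were kept, with medians of -0.10 with siHHLA3-1 and 0.04 with siHHLA3-3. None passed 1.5-fold in either direction, where 3.34% and 5.57% of all genes tested were that much lower and 5.03% and 3.65% higher. The gene NRF1 stood at 19.4 CPM with siHHLA3-1, 21.5 CPM with siHHLA3-3 and 26.9 CPM with siNC, ratios of -0.46 and -0.31. PPARGC1B, a coactivator of mitochondrial biogenesis, stood at 27.0, 29.2 and 35.7 CPM, ratios of -0.39 and -0.28. GABPA, the DNA-binding subunit of GABP, stood at 40.6, 33.5 and 33.7 CPM, and GABPB2, a partner subunit of GABP, had ratios of -0.09 and 0.31. NRF1 was thus below siNC with each siRNA, and GABPA above it with siHHLA3-1.

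Genes that build or serve the complexes were set beside the members. Of 19 complex I assembly factors, 1 was at least 1.5-fold lower with siHHLA3-1 and 0 with siHHLA3-3, and their medians were -0.15 and 0.03. Of all genes tested, 3.34% with siHHLA3-1 and 5.57% with siHHLA3-3 were as low. The 1 was NDUFAF2, at 20.2 CPM with siHHLA3-1, 39.9 CPM with siHHLA3-3 and 37.1 CPM with siNC. TMEM126A, another of the lowest by mean ratio, had ratios of -0.22 and -0.42, and the highest were TMEM186, with 0.11 and 0.10, and COA1, with -0.17 and 0.30. Of 21 complex IV assembly factors kept, 1 was lower in each comparison: COA4, at 28.0, 36.9 and 43.5 CPM, with siHHLA3-1, and COX18, which inserts MT-CO2 into the membrane, at 8.59, 6.65 and 11.5 CPM, with siHHLA3-3. Their medians were -0.24 and -0.05. At the high end, COX19 had ratios of 0.19 and 0.33 and COA8 of 0.03 and 0.26. No assembly factor was 1.5-fold higher on the scale with 1 CPM added, where 5.03% and 3.65% of all genes tested were. Without the added 1 CPM, PET100 was 1.78-fold higher with siHHLA3-1 (95% counting interval 1.14 to 2.81) and 1.73-fold with siHHLA3-3 (1.08 to 2.80), and SCO2 1.75-fold with siHHLA3-1 (1.11 to 2.81), both at under 2 CPM in every library. PET100 and SCO2 were picked after their values were seen. No share of all genes was computed on that scale, so nothing is read from these folds. Both list medians were lower with siHHLA3-1 than with siHHLA3-3, a difference that was not tested.

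All 4 complex V assembly factors kept were below siNC in each comparison, with medians of -0.31 and -0.15. Of all genes tested, 51.8% with siHHLA3-1 and 51.5% with siHHLA3-3 were below 0. TMEM70, which helps to assemble the c-ring, stood at 38.4 CPM with siHHLA3-1, 58.2 CPM with siHHLA3-3 and 63.0 CPM with siNC. It was the 1 past 1.5-fold, lower with siHHLA3-1. At least 1.5-fold lower were 3.34% of all genes tested with siHHLA3-1 and 5.57% with siHHLA3-3. ATPAF1 and ATPAF2, chaperones of the beta and alpha subunits, had ratios of -0.25 and -0.20 with siHHLA3-1 and of -0.16 and -0.33 with siHHLA3-3, and TMEM242 had -0.37 and -0.13. Of 10 assembly factors of complexes II and III, 0 passed 1.5-fold, and the lowest was TTC19, at 41.6, 39.3 and 58.2 CPM, followed by UQCC2, with ratios of -0.38 and -0.21. The highest were LYRM7, with -0.02 and 0.26, and UQCC1, with 0.15 and 0.03. The list medians were -0.05 and -0.16.

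Among subunits and carriers outside the name rule, 0 of 6 passed 1.5-fold. With siHHLA3-1 and siHHLA3-3, 3.34% and 5.57% of all genes tested were at least 1.5-fold lower, and 5.03% and 3.65% higher. CYC1, cytochrome c1 of complex III, stood at 95.1, 105 and 120.0 CPM with siHHLA3-1, siHHLA3-3 and siNC, ratios of -0.33 and -0.19. Cytochrome c itself, CYCS, had ratios of -0.23 and 0.13, and NDUFAB1, the acyl carrier of complex I, -0.27 and -0.10. DMAC2L, the coupling factor s of complex V, had 0.03 and -0.15. Coenzyme Q synthesis genes had medians of -0.23 and -0.07 over 12 genes, with 0 past 1.5-fold. At their low end PDSS1 had ratios of -0.57 and -0.03 and COQ5 of -0.35 and -0.42, and at their high end COQ10B had 0.31 and 0.23 and COQ10A 0.09 and 0.16. CYC1 and NDUFAB1 therefore lay in the range of the members.

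The 13 genes that keep and read mitochondrial DNA had a median ratio of -0.12 for siHHLA3-1 (9 of 13 below 0) and of 0.02 for siHHLA3-3 (5 of 13 below 0). Of all genes tested, 51.8% and 51.5% were below 0. TFAM, which packages mitochondrial DNA and starts its transcription, stood at 85.6 CPM with siHHLA3-1, 80.1 CPM with siHHLA3-3 and 114 CPM with siNC, ratios of -0.40 and -0.50. TFB1M, the methyltransferase of the small mitochondrial rRNA, stood at 5.10, 7.49 and 10.1 CPM. It was the 1 gene of this list past 1.5-fold, lower with siHHLA3-1, where 3.34% of all genes tested were at least 1.5-fold lower. MTERF1, a terminator-binding protein, had ratios of 0.16 and 0.26, and TEFM, the elongation factor, 0.19 and 0.03. Of 16 genes of mitochondrial RNA processing and stability, 1 passed 1.5-fold upwards with siHHLA3-1 and 0 did with siHHLA3-3, beside 5.03% and 3.65% of all genes tested. This was PNPT1, the polynucleotide phosphorylase of mitochondria and an interferon-inducible gene, at 283, 228 and 180 CPM. GRSF1, a binding protein of mitochondrial RNA granules, stood at 119, 121 and 155 CPM, and ELAC2, which cuts tRNA 3′ ends, at 131, 142 and 166 CPM. PRORP, the nuclease that cuts tRNA 5′ ends, had ratios of 0.20 and 0.05.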

How the data were processed

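Total RNA libraries of 3 samples of H1975 cells (siHHLA3-1, siHHLA3-3 and siNC, 1 library each) were analysed from a single table of 16662 genes that the authors deposited. Its counts are whole reads per gene, as deposited and not normalised. Their scaling by library total gives the CPM column, per the file headers and values, and the authors also deposited FPKM and TPM, which take gene length into account. The submitters' processing notes name the aligners Bowtie2, TopHat2, HISAT and HISAT2 and the build hg19. Neither the counting program nor its annotation or strand setting is given in the sources used here, which leaves overlapping or copied genes uncertain.

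Library totals (26950852 to 35069930) were recovered from counts and CPM and scaled with TMM factors (edgeR 4.0.16, R 4.3.3). Ratios used a pseudocount of 1 CPM, which understates low genes, and genes averaging 1 CPM or more were kept. Levels have exact Poisson and ratios exact binomial 95% intervals; reads are not independent molecules, and both cover counting error only. No p-value was computed for 1 library against 1. An edgeR quasi-likelihood fit, with Benjamini-Hochberg adjustment over all genes kept, took the siHHLA3 libraries as 2 samples, assuming that siNC varies as they do; DESeq2 1.42.0 was the alternative. The methods were tested on simulated data with planted changes larger than most ratios here. The simulated ratios had counting error but no other spread between libraries. Those tests therefore do not bear on differences as small as most reported here.

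Positions, exon overlap (10% or more counted as shared) and 3′ UTR sequences came from GENCODE release 29 (GRCh38), promoters from RefSeq (GRCh38.p14). The members and lists, including the 7-base sequences, were chosen with earlier results of these data known. Named members are all mitochondrially encoded ones, the 2 highest and 2 lowest ratios per complex and comparison, the 2 highest and the lowest level per complex, those past 1.5-fold, pairs of isoforms, ATP5IF1 and carriers of the 7-base sequences; in each other list, the 2 highest and 2 lowest mean ratios at 5 CPM or more. OGDH, PET100 and SCO2 are outside that rule and were chosen after their values were seen. The analysis was repeated with other scalings, the pseudocount at 0.1 CPM, without a filter, on genes averaging 100 CPM or more, on the deposited TPM and FPKM, with a 2-fold and a milder threshold (0.8 of siNC), removal of trends on level and length, and without members that carry a 7-base sequence or share reads. Python 3.11.15, numpy 2.4.6, pandas 2.3.3, scipy 1.17.1, statsmodels 0.14.6 and matplotlib 3.10.9 were used.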

Additional observations from a re-analysis of the deposited data

How the results depend on the processing

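The nuclear median stayed below 0 in all 24 alternatives, from -0.16 to -0.08 with siHHLA3-1 and from -0.16 to -0.10 with siHHLA3-3. The mitochondrially encoded median with siHHLA3-1 turned to 0.00092 with the deposited TPM and to 0.10 without the trend on level; the cause was not tested. It was -0.0072 with library totals and with FPKM, and -0.043 without the trend on length. With siHHLA3-3 it was -0.10 with library totals and with FPKM, -0.087 with TPM, -0.023 without the trend on level and -0.12 without that on length.

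Summed ratios moved beyond their counting intervals under some alternatives, given here, and stayed within them under the others. For nuclear members with siHHLA3-1 the ratio was 0.907 with library totals, 0.857 at 100 CPM or more, 0.920 with TPM, 0.914 with FPKM and 0.866 without members that share reads; with siHHLA3-3 it was 0.914, 0.921 with TPM, 0.911 with FPKM and 0.877 without members that share reads. For mitochondrially encoded members it was 0.964 and 0.920 with DESeq2 size factors, 0.993 and 0.946 with library totals, 0.992 and 0.953 with TPM, and 0.986 and 0.942 with FPKM, for siHHLA3-1 and siHHLA3-3.

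Counts of lower members were 0 and 1 at 2-fold with siHHLA3-1 and siHHLA3-3, beside 53 and 205 of all 13879 genes kept. At the milder threshold (0.8 of siNC) they were 5 and 11, beside 13.5% and 15.1% of all genes. Counts of higher members were 2 and 1 at that factor, beside 15% and 12.7%. The siHHLA3-1 count was 0 at 100 CPM or more, with FPKM, without carriers of a 7-base sequence and without members that share reads, since UQCR11 is left out or short of the threshold there. The siHHLA3-3 count was 1 with library totals, TPM, FPKM and at 100 CPM or more, 2 without carriers of a 7-base sequence, and 4 with a pseudocount of 0.1 CPM, which adds ATP5ME. Of 1094 values of single members under alternatives, 155 moved beyond the counting interval. After rounding to 2 decimals, 32 crossed 0, none of them a ratio past 1.5-fold. The largest main size among those 32 was 0.16, and ratios that rounded to 0 were not counted among them. Scaling without the mitochondrial genes, and leaving out members that share reads, give no mitochondrial value, and a pseudocount or a trend gives no summed one. No paired analysis was possible because each group has 1 library. Counting error limits members of few reads, such as ATP5ME.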

Other observations

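The citric acid cycle, which supplies NADH and succinate to complexes I and II, had a median ratio over 14 genes of -0.25 with siHHLA3-1 (13 of 14 below 0) and of -0.16 with siHHLA3-3 (10 of 14 below 0). Of all genes tested, 51.8% and 51.5% were below 0, and of those at 100 CPM or more 60.5% and 54.8%. With siHHLA3-1 0 of the 14 were at least 1.5-fold lower, beside 3.34% of all genes tested, and with siHHLA3-3 3 were, beside 5.57%. CS, citrate synthase, stood at 301 CPM with siHHLA3-1, 202 CPM with siHHLA3-3 and 389 CPM with siNC, ratios of -0.37 and -0.94. FH, fumarase, stood at 89.7, 63.9 and 115 CPM, ratios of -0.36 and -0.84. The third was OGDH, of the 2-oxoglutarate dehydrogenase complex, at 198, 112 and 189 CPM, ratios of 0.07 and -0.75. The highest mean ratios of the list were those of IDH3G and IDH3B, subunits of the NAD-dependent isocitrate dehydrogenase: IDH3G had -0.06 and 0.07, and IDH3B -0.23 and 0.12.

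Mitochondrial transcripts that encode no subunit were listed as well. MT-RNR2, the large rRNA, stood at 1205 CPM with siHHLA3-1, 1291 CPM with siHHLA3-3 and 1031 CPM with siNC, ratios of 0.22 and 0.32. MT-RNR1, the small rRNA, stood at 121, 115 and 122 CPM, ratios of -0.01 and -0.08. MT-TP, a tRNA gene on the other strand, stood at 149, 94.3 and 92.8 CPM, ratios of 0.67 and 0.02. The 17 listed nuclear copies of mitochondrial genes summed to 976, 929 and 1095 CPM. How rRNA was removed from these libraries is not given in the sources used here, and its part in these values was not tested.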
